A study of Mus musculus with 6 samples.

Results

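The translation initiation factors and their regulators were followed in mouse macrophages treated with trametinib and LPS and in macrophages treated with vehicle and LPS. They were chosen by name, as the protein-coding genes whose symbol begins with Eif and a digit and that had at least 60 counts summed over the 6 libraries. This gave 53 of the 25044 genes measured. Of the 55 protein-coding genes with such a symbol, Eif4e1b with 1 count and Eif4ebp3 with 28 counts were below the minimum. All 53 passed the filter on low counts and were among the 11286 genes tested.

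The cells were thioglycollate-elicited peritoneal macrophages from wild-type C57BL/6 mice aged 8 weeks. They received 100 nM trametinib, which blocks MEK1 and MEK2, the kinases upstream of ERK, or DMSO as vehicle, for 2 h, and then 100 ng/ml LPS, a bacterial ligand of TLR4, for 12 h. Each group had 3 libraries of ribosomal-RNA-depleted total RNA. Every culture received LPS, so the comparison shows what differed between inhibitor and vehicle in LPS-treated cells and not what LPS induced.

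Initiation begins when eIF2, loaded with GTP and the initiator tRNA, joins eIF1, eIF1A, eIF3 and eIF5 on the small ribosomal subunit. The cap of the mRNA is bound by eIF4E, which the scaffold eIF4G ties to the helicase eIF4A, and the eIF4E-binding proteins compete with eIF4G for eIF4E. After start codon selection, eIF2 leaves with GDP and is recharged by its exchange factor eIF2B, a step that is blocked when an eIF2alpha kinase phosphorylates eIF2. In macrophages, LPS signalling through ERK and p38 reaches this machinery through the MNK kinases, which phosphorylate eIF4E.

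Libraries held 17453778 to 19648467 counts with trametinib and 17533137 to 17819451 counts with vehicle. On the first principal component of all tested genes, with 68.8% of the variance, the trametinib libraries lay at −35.5 to −26.4, vehicle replicates 1 and 2 at 39.3 and 38.1, and vehicle replicate 3 at 16.2, nearer to the trametinib libraries than its fellow replicates were. Egr1, an early target of ERK signalling, was at 0.0591, 0.107 and 0.111 CPM with trametinib and at 9.14, 9.93 and 3.62 CPM with vehicle. Of 9 listed ERK output genes 8 fell (88.9%, beside 18.4% of all genes tested), and Myc did not pass (edgeR adjusted p = 0.194). The test was edgeR's quasi-likelihood test with Benjamini-Hochberg adjustment, used for every call below. Vehicle replicate 3 was the lowest vehicle library in all 8 genes that fell. Macrophage markers summed to 13999 to 15612 CPM with trametinib and 15131 to 16892 CPM with vehicle, and of the 7 markers Mertk was higher and Adgre1 and Itgam were lower; the part of these changes in the results below was not tested. Mitochondrially encoded genes took 0.763%, 1.76% and 0.840% of counts with trametinib and 0.717%, 0.871% and 0.796% with vehicle. The summed levels of markers of other cell types were 4.29 to 9.02 CPM with trametinib and 4.37 to 7.23 CPM with vehicle for 7 neutrophil genes. For 5 T or NK cell genes they were 16.2 to 25.4 CPM with trametinib and 10.6 to 17.3 CPM with vehicle, nearly all of it Cd4, which macrophages can also express. The 6 mast cell or eosinophil genes summed to 0.946 to 1.88 CPM with trametinib and 0.594 to 1.57 CPM with vehicle, and the 6 fibroblast or mesothelium genes to 0.414 to 2.84 CPM with trametinib and 0.756 to 1.35 CPM with vehicle. Retnlg, Mcpt4 and Msln were at 0 in every library.

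Promoters of the genes with the lowest adjusted p that had an entry are shown because the text below turns on them. Eif4e encodes the cap-binding protein and was among the genes that fell most, Eif2s2 encodes the beta subunit of eIF2 and fell, and Eif4g3 encodes a paralog of the eIF4G scaffold and had the greatest rise of the 53. Each sequence runs from 250 bases before to 50 bases after a RefSeq transcript start in GRCm38.p6, 5′ to 3′ on the strand of the gene, and capitals mark a match to the E-box CACGTG.
Eif4e, downstream start, chr3:138527018-138527317, plus strand: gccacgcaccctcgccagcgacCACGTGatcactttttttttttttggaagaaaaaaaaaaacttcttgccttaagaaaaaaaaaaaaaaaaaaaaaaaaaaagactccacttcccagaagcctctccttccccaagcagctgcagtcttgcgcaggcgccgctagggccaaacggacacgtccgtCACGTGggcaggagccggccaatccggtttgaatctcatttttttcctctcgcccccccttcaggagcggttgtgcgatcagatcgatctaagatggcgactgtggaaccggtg
Eif2s2, chr2:154892857-154893156, minus strand: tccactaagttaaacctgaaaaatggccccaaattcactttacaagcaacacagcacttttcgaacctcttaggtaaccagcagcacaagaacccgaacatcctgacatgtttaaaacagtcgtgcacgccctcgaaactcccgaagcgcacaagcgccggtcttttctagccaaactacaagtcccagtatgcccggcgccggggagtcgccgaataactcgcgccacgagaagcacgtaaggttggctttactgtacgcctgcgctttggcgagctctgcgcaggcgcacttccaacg
Eif4g3, chr4:137993205-137993504, plus strand: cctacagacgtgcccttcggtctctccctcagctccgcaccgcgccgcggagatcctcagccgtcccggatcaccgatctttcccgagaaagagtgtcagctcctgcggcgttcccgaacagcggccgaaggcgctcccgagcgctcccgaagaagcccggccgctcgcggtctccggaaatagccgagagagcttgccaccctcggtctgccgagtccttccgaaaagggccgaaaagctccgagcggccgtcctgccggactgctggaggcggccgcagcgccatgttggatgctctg
The Eif4e window holds 2 E-boxes, with their first bases 228 and 64 bases upstream of the start. Neither the E-box nor CCGGAAG, a core letter string bound by ETS factors, is in the Eif2s2 or Eif4g3 window, nor in the window of a more upstream Eif4e start. CACGTG reads the same on both strands, and CCGGAAG was sought on both. A match of one string cannot overlap a match of the other. Of the 53 genes, 43 had a promoter in the RefSeq table, and 10 of these (23.3%) held an E-box at any of their listed starts, against 12.1% of 9031 genes tested and 8.09% of all 27025 genes with a promoter. Among the genes that fell and had an entry, 5 of 20 (25%) held one, namely Eif3a, Eif4a1, Eif4e, Eif4g1 and Eif5a. The ETS core was found in 16 of 43 (37.2%), against 21.4% of genes tested and 9.93% of all genes with a promoter, and among the genes that fell in 7 of 20 (35%). Counted at the most upstream start alone, the E-box was in 18.6% of the initiation factor genes and 10.6% of the genes tested, and the ETS core in 32.6% of the initiation factor genes and 19.8% of the genes tested. These are matches of letters, and nothing was measured of binding to them.

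With trametinib, transcripts of much of the initiation apparatus were lower. Of the 53 genes, 26 fell, 2 rose (Eif4g3 and Eif3f) and 25 did not pass an adjusted p of 0.05. Of all genes tested, 34.3% passed, 18.4% lower and 15.8% higher. The median log2 fold change of the 53 genes was −0.26, against −0.0053 for all genes tested, and 43 of the 53 values were below zero. In 32 genes every trametinib library was below every vehicle library, and in 4 every trametinib library was above, where 25.9% and 23.4% of all genes tested had no overlap in those directions. The 3 genes that passed with at least a 2-fold change were Eif3j2, Eif2b3 and Eif4e, where 6.60% of all genes tested did so. Together the 53 genes summed to 6165 ± 70.3 CPM with trametinib and 7219 ± 80.9 CPM with vehicle (SD, n = 3 each), a ratio of 0.854. CPM are counts scaled to a common library total, so a lower value in these bulk samples can come from fewer cells of a type or less of the RNA per cell, and these cannot be told apart.

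Library by library, the median log2 ratio of the 53 genes to the vehicle mean was −0.27, −0.26 and −0.24 in the trametinib libraries and 0.0078, 0.026 and −0.040 in the vehicle libraries. For the 26 genes that fell it was −0.44 in each of the trametinib libraries and 0.026, 0.048 and −0.087 in the vehicle libraries. Vehicle replicate 3 was the lowest vehicle library in 20 of the 26 (76.9%), beside 64.6% of all genes that fell. Leaving out vehicle replicate 3 gave 29 lower genes, and leaving out trametinib replicate 1 gave 21. Over all genes, without trametinib replicate 1 or vehicle replicate 1 the genes that passed numbered 2428 and 2538, against 3869 with every library.

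**Figure D1:**
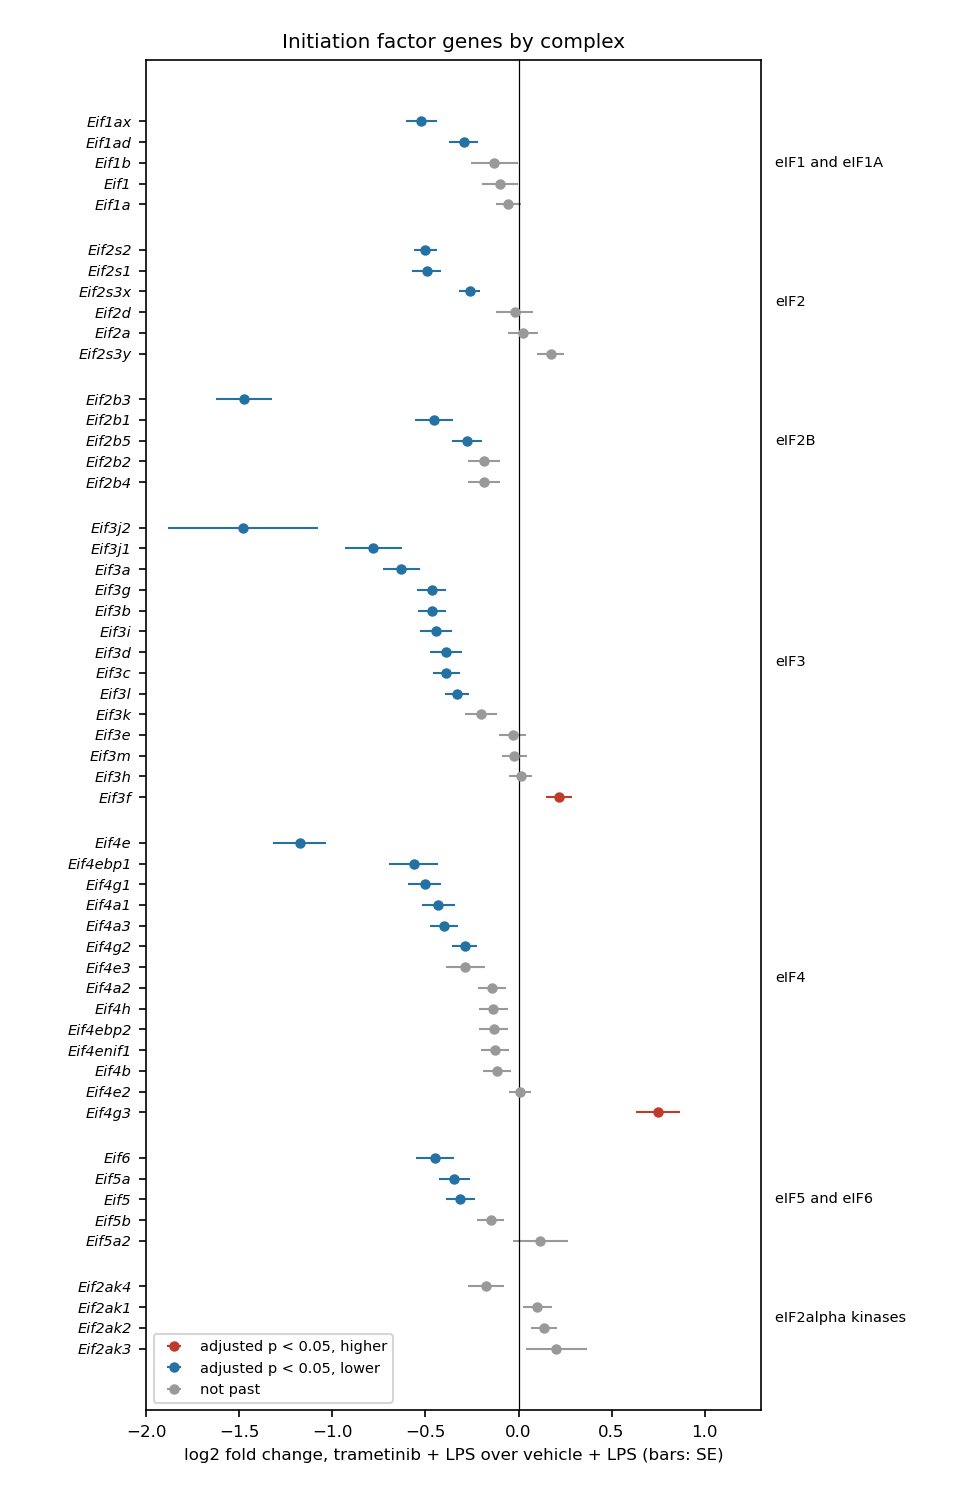
Log2 fold change of trametinib + LPS over vehicle + LPS for each of the 53 initiation factor genes, grouped by complex, with bars of 1 standard error; colour marks genes that fell, rose or did not pass an adjusted p of 0.05. The eIF3 genes spread from Eif3j2 at −1.48 to Eif3f at 0.22, the eIF4 genes from Eif4e at −1.18 to Eif4g3 at 0.75, and the 4 kinases lie between −0.17 and 0.20.

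The cap-binding complex eIF4F changed in both directions. Eif4e, the cap-binding subunit (chromosome 3, 138526179 to 138559696, plus strand, mm10), had 34.3, 42.8 and 40.1 CPM in the trametinib libraries, against 93.8, 100.3 and 70.8 CPM in the vehicle libraries. The groups did not overlap, and vehicle replicate 3 was the lowest of the vehicle libraries. It averaged 39.1 ± 4.32 CPM with trametinib and 88.3 ± 15.5 CPM with vehicle (SD, n = 3 each), 2.26-fold lower with trametinib, with a log2 fold change of −1.18 ± 0.14 (SE) and an adjusted p of 0.000983 in edgeR's test. The other cap-binding genes did not pass. Eif4e2, which binds caps without joining eIF4G in the usual way, averaged 72.6 ± 1.96 CPM with trametinib and 72.4 ± 1.74 CPM with vehicle (log2 fold change 0.0056 ± 0.06). Eif4e3 had 10.9, 13.2 and 11.5 CPM with trametinib and 14.4, 15.4 and 13.6 CPM with vehicle, groups that did not overlap. Its log2 fold change of −0.29 ± 0.11 had an edgeR adjusted p of 0.0665. With the replicate numbers as a block the adjusted p of Eif4e3 was 0.0381, and it also passed without trametinib replicate 2 or vehicle replicate 3 (0.0381 to 0.215 over the 10 alternatives). Per kilobase of transcript, Eif4e made up 21.1%, 24.6% and 24.4% of the summed level of the 3 cap-binding genes in the trametinib libraries and 42.0%, 42.4% and 34.9% in the vehicle libraries. These shares depend on the transcript length chosen for each gene, and 13.1% of the longest Eif4e transcript has a near-identical copy elsewhere in the transcriptome, so its reads could in part be assigned to other genes.

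The scaffold paralogs moved in opposite directions. Eif4g1, the main scaffold of eIF4F, had 232, 220.2 and 265 CPM with trametinib, against 350.1, 341 and 326 CPM with vehicle. Eif4g3, which can take its place in eIF4F (chromosome 4, 137993022 to 138208508, plus strand), had 419, 386 and 405 CPM with trametinib, against 223, 212 and 286 CPM with vehicle. Neither pair of groups overlapped, and vehicle replicate 3 was the vehicle library nearest to the trametinib libraries for both genes. The log2 fold change was −0.50 ± 0.09 for Eif4g1 (edgeR adjusted p = 0.00308), and Eif4g3 was 1.68-fold higher with trametinib at 0.75 ± 0.12 (edgeR adjusted p = 0.00174). Per kilobase, Eif4g3 made up 55.6%, 54.9% and 51.5% of the summed level of Eif4g1 and Eif4g3 in the trametinib libraries and 30.6%, 30.1% and 37.8% in the vehicle libraries. At these lengths Eif4g3 was thus the more abundant of the pair per kilobase in every trametinib library and the less abundant in every vehicle library. The shares depend on the transcript length chosen for each gene, 5638 bases for Eif4g1 and 8134 for Eif4g3.

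Eif4g2, a relative of eIF4G that lacks the eIF4E-binding site and serves cap-independent initiation, had the highest CPM of the set. It stood at 1321, 1309.7 and 1386 CPM with trametinib, against 1616, 1615 and 1679.9 CPM with vehicle, without overlap. The log2 fold change was −0.29 ± 0.07 (edgeR adjusted p = 0.0110), and the call was lost without trametinib replicate 1 or 2 (adjusted p 0.000805 to 0.0642 over the 10 alternatives).

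Of the helicases, Eif4a1, the main eIF4A of eIF4F, had 366, 415 and 385 CPM with trametinib, against 538, 556 and 477 CPM with vehicle. With no overlap between groups, the log2 fold change was −0.43 ± 0.09 (edgeR adjusted p = 0.00594). Its paralog Eif4a2 averaged 122 ± 8.49 CPM with trametinib and 135 ± 5.13 CPM with vehicle and did not pass, while Eif4a3, the helicase of the exon junction complex, fell (log2 fold change −0.40, adjusted p = 0.00378). Near-identical copies cover 68.7% of the longest Eif4a1 transcript, so its count is less certain than that of a single-copy gene. Eif4b and Eif4h, which stimulate the helicase, did not pass, at log2 fold changes of −0.12 and −0.13, nor did Eif4enif1, which carries eIF4E into the nucleus, at −0.13.

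Of the eIF4E-binding proteins, the translational brakes released when mTORC1 phosphorylates them, only Eif4ebp1 passed. It had 19.6, 21.6 and 20.8 CPM with trametinib, against 34.5, 33.1 and 24.1 CPM with vehicle. The groups did not overlap, although vehicle replicate 3 lay close to the trametinib libraries. The log2 fold change was −0.56 ± 0.13 (edgeR adjusted p = 0.0118), and without trametinib replicate 1 the adjusted p was 0.0579 (9.22e-05 to 0.0579 over the 10 alternatives). Eif4ebp2 overlapped between the groups, with 58.7, 52.3 and 60.4 CPM under trametinib and 62.0, 60.2 and 65.9 CPM under vehicle (log2 fold change −0.13 ± 0.08, edgeR adjusted p = 0.211). Eif4ebp3 stayed at 3 to 7 counts with trametinib and 3 to 6 counts with vehicle. Because Eif4e fell further than Eif4ebp1, the ratio of their levels per kilobase was 0.702, 0.791 and 0.770 with trametinib and 1.09, 1.21 and 1.18 with vehicle. In this ratio vehicle replicate 3 lay between its fellow replicates. Per Eif4ebp1 and Eif4ebp2 summed, Eif4e stood at 0.345, 0.432 and 0.385 with trametinib and 0.671, 0.744 and 0.605 with vehicle. There vehicle replicate 3 was the lowest vehicle library, without overlap between the groups. In all, 6 of the 14 eIF4 genes fell (42.9%), 1 rose and 7 did not pass, where 18.4% of all genes tested fell and 15.8% rose. The median log2 fold change of the eIF4 genes was −0.21.

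**Figure D2:**
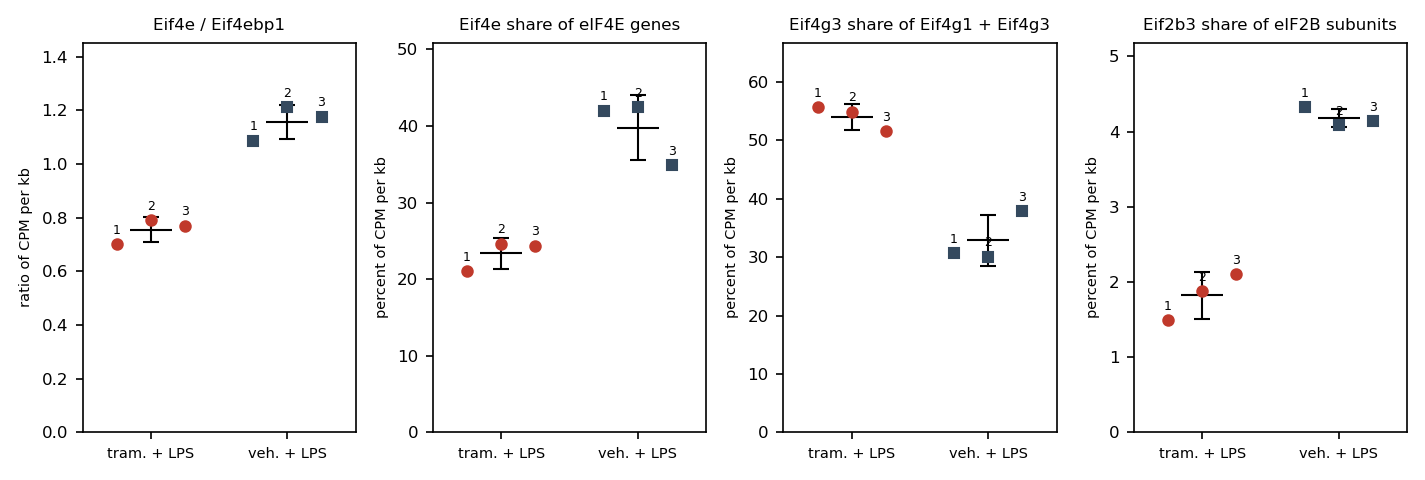
Ratios and shares within initiation factor families, from CPM per kilobase of the longest protein-coding transcript; each point is 1 library, trametinib + LPS on the left and vehicle + LPS on the right. Eif4e per Eif4ebp1 runs from 0.702 to 0.791 with trametinib and from 1.09 to 1.21 with vehicle, and the Eif4g3 share of Eif4g1 and Eif4g3 from 51.5% to 55.6% with trametinib and from 30.1% to 37.8% with vehicle.

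The core subunits of eIF2, which carry the initiator tRNA, fell, apart from the Y-linked gamma subunit. Eif2s1, the alpha subunit that the stress kinases phosphorylate, had 43.7, 49.0 and 47.5 CPM with trametinib, against 66.2, 70.1 and 61.4 CPM with vehicle. Eif2s2, the beta subunit, had 90.3, 91.3 and 87.2 CPM with trametinib, against 125, 132 and 123 CPM with vehicle. Both genes were lower in every trametinib library, with log2 fold changes of −0.49 ± 0.08 (edgeR adjusted p = 0.00184) and −0.50 ± 0.06 (edgeR adjusted p = 0.000682). The X-linked gamma subunit gene Eif2s3x averaged 89.7 ± 1.26 CPM with trametinib and 108 ± 1.34 CPM with vehicle and fell (log2 fold change −0.26, adjusted p = 0.00717). Its Y-linked partner Eif2s3y had 48.9, 55.1 and 48.5 CPM with trametinib, against 45.4, 44.7 and 45.3 CPM with vehicle. Every trametinib library was above every vehicle library, yet the log2 fold change of 0.17 ± 0.07 did not pass (edgeR adjusted p = 0.100). Per kilobase of the longest transcript, Eif2s3y made up 52.3%, 54.6% and 51.8% of the pair with trametinib and 45.2%, 45.4% and 45.6% with vehicle. These shares depend on the length chosen, 3647 bases for Eif2s3x and 1836 for Eif2s3y. With the whole exonic length in its place, the vehicle means were 28.2 CPM per kilobase for Eif2s3x and 10.8 for Eif2s3y. Near-identical copies cover 39.0% of the longest Eif2s2 transcript and 37.0% of that of Eif2s3x. Eif2a and Eif2d, which can deliver tRNA to the ribosome without eIF2, had log2 fold changes of 0.025 and −0.020 and did not pass.

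In eIF2B, the exchange factor that recharges eIF2 with GTP, the levels of all 5 subunits were lower in every trametinib library than in any vehicle library, and 3 of the 5 passed. By comparison, 25.9% of all genes tested had no overlap in that direction and 18.4% passed as lower. The gamma subunit Eif2b3 belongs, with the epsilon subunit Eif2b5, to the catalytic subcomplex. Eif2b3 (chromosome 4, 117019402 to 117087306, plus strand) had 2.72, 3.28 and 3.84 CPM with trametinib, against 9.87, 9.03 and 8.53 CPM with vehicle. Its groups lay far apart, and vehicle replicate 3 was near its fellow replicates. Eif2b3 averaged 3.28 ± 0.561 CPM with trametinib and 9.14 ± 0.673 CPM with vehicle (SD, n = 3 each), 2.78-fold lower with trametinib (log2 fold change −1.48 ± 0.15, edgeR adjusted p = 0.000375). Eif2b5, the epsilon subunit, had 38.7, 33.2 and 38.1 CPM with trametinib, against 43.9, 46.6 and 42.9 CPM with vehicle. Its log2 fold change was −0.28 ± 0.08 (edgeR adjusted p = 0.0299), a call that was lost without trametinib replicate 1 or 2, without vehicle replicate 1 or 2 and in DESeq2 (adjusted p 0.0191 to 0.106 over the 10 alternatives).

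Of the regulatory subunits of eIF2B, which sense phosphorylated eIF2, 1 of 3 passed (33.3%, beside 34.3% of all genes tested). Eif2b1 had 11.3, 11.2 and 9.46 CPM with trametinib, against 14.8, 14.8 and 14.0 CPM with vehicle, and fell by 0.45 on the log2 scale (edgeR adjusted p = 0.00936). Eif2b2 had 31.7, 32.5 and 32.2 CPM with trametinib, against 40.2, 36.5 and 33.0 CPM with vehicle. Eif2b4 had 14.9, 13.9 and 15.9 CPM with trametinib, against 17.4, 16.5 and 16.9 CPM with vehicle. Neither passed, with log2 fold changes of −0.19 ± 0.09 (edgeR adjusted p = 0.127) for Eif2b2 and −0.19 ± 0.09 (edgeR adjusted p = 0.130) for Eif2b4. Without vehicle replicate 3, the lowest vehicle library for Eif2b2, that gene passed at 0.0262 (0.0262 to 0.416 over the 10 alternatives). Per kilobase, Eif2b3 was the scarcest subunit and made up 1.49%, 1.88% and 2.11% of the summed eIF2B level with trametinib and 4.32%, 4.09% and 4.14% with vehicle.

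Of the eIF2alpha kinases, which slow initiation under stress, none of the 4 passed in edgeR, in DESeq2 or in any other alternative. Their median log2 fold change was 0.12, and 34.3% of all genes tested passed in edgeR. At an unadjusted p under 0.05 there were 0 in edgeR and 0 in DESeq2. There was 1 with the replicate block, and 1 without vehicle replicate 2 or vehicle replicate 3. Eif2ak2, the interferon-induced kinase PKR activated by double-stranded RNA, had 284, 286 and 270.3 CPM with trametinib, against 254, 251 and 259 CPM with vehicle. Its groups did not overlap, but the log2 fold change of 0.14 ± 0.07 did not pass (edgeR adjusted p = 0.163). Eif2ak1, the heme-regulated kinase, had 63.0, 71.8 and 63.8 CPM with trametinib, against 60.0, 65.2 and 59.8 CPM with vehicle (log2 fold change 0.10 ± 0.08, edgeR adjusted p = 0.328). Eif2ak3, or PERK, the kinase of the endoplasmic reticulum stress response, had 10.2, 9.51 and 12.5 CPM with trametinib, against 7.85, 8.70 and 11.4 CPM with vehicle (log2 fold change 0.20 ± 0.16, edgeR adjusted p = 0.369). Eif2ak4, or GCN2, which senses uncharged tRNA, had 18.03, 17.8 and 18.4 CPM with trametinib, against 22.2, 17.9 and 21.1 CPM with vehicle (log2 fold change −0.17 ± 0.10, edgeR adjusted p = 0.191). The groups overlapped for Eif2ak1, Eif2ak3 and Eif2ak4. Per kilobase, Eif2ak2 made up 74.9% to 76.5% of the summed kinase level with trametinib and 74.1% to 74.8% with vehicle.

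**Figure D3:**
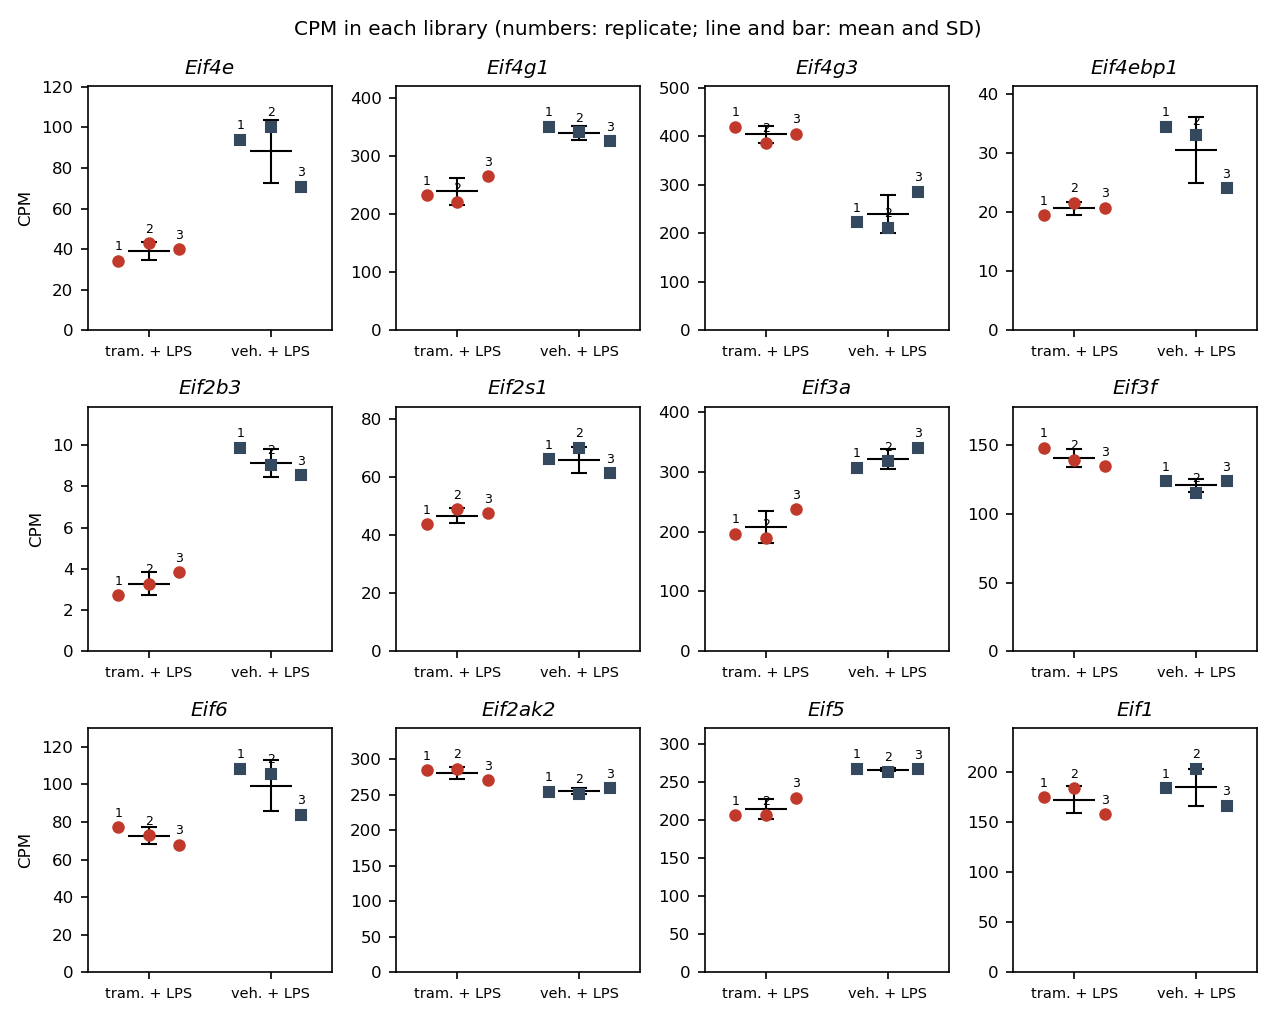
CPM in every library for 12 initiation factor genes, trametinib + LPS on the left and vehicle + LPS on the right of each panel, with the replicate number at each point and the mean and SD as a line and bar; each axis starts at 0. Eif4e and Eif2b3 show no overlap between the groups, Eif4g3 lies at 386 to 419 CPM with trametinib and 212 to 286 CPM with vehicle, and the groups overlap for Eif1.

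The multi-subunit scaffold eIF3, which bridges the small ribosomal subunit and the mRNA, had 9 of 14 genes lower (64.3%), 1 higher and 4 that did not pass. Among all genes tested, 18.4% fell and 15.8% rose. The median log2 fold change of the eIF3 genes was −0.39. Eif3a, the largest subunit of eIF3, had 196, 189 and 237 CPM with trametinib, against 307, 317 and 339.8 CPM with vehicle. The groups did not overlap, and here vehicle replicate 3 was the highest library (log2 fold change −0.63 ± 0.10, edgeR adjusted p = 0.00205). Eif3b, which anchors a module with Eif3g and Eif3i, had 126, 125 and 135 CPM with trametinib, against 180.3, 187 and 166 CPM with vehicle, again without overlap (log2 fold change −0.47 ± 0.08, edgeR adjusted p = 0.00205). All 3 genes of this module fell, Eif3g by 0.47 and Eif3i by 0.44 on the log2 scale. Eif3c, which with Eif3a organises the core, fell by 0.39 (adjusted p = 0.00368), as did Eif3d, a subunit that can bind the cap of selected mRNAs (−0.39, adjusted p = 0.00809), while Eif3l fell by 0.33 (adjusted p = 0.00519).

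No other subunit of the eIF3 core passed as lower. Eif3e, Eif3h and Eif3m had log2 fold changes of −0.032, 0.012 and −0.023 with standard errors of 0.07, 0.06 and 0.07, and none passed. Near-identical copies cover 87.7% of the longest Eif3m transcript. Eif3k, at −0.20 ± 0.09, passed in 1 of the 10 alternatives, that without vehicle replicate 3 (adjusted p 0.0371 to 0.307 over the 10 alternatives). Eif3f had 148, 139 and 135 CPM with trametinib, against 124, 115 and 124 CPM with vehicle, and every trametinib library was above every vehicle library. Its log2 fold change was 0.22 ± 0.07 (edgeR adjusted p = 0.0398), but the call was lost without trametinib replicate 1 or 2, without vehicle replicate 1 or 2 and with no filter on low counts (adjusted p 0.0221 to 0.156 over the 10 alternatives). Of the 8 genes of the core octamer (Eif3a, Eif3c, Eif3e, Eif3f, Eif3h, Eif3k, Eif3l and Eif3m), 3 fell, 1 rose and 4 did not pass. The share that fell was 37.5%, where 18.4% of all genes tested fell and 15.8% rose.

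The paralogs of the loosely bound subunit eIF3j had low counts. Eif3j1 had 5.97, 5.37 and 7.68 CPM with trametinib, against 12.2, 10.4 and 10.0 CPM with vehicle, without overlap (log2 fold change −0.78 ± 0.15, edgeR adjusted p = 0.00502). Eif3j2 was represented by 6, 26 and 20 counts with trametinib and 34, 54 and 59 counts with vehicle, or 0.355, 1.40 and 1.11 CPM with trametinib and 1.91, 3.01 and 3.19 CPM with vehicle. The groups did not overlap, though trametinib replicate 2 and vehicle replicate 1 were close. Its log2 fold change of −1.48 ± 0.40 (edgeR adjusted p = 0.0224) lost the call without trametinib replicate 3 or vehicle replicate 2 (adjusted p 0.00462 to 0.0723 over the 10 alternatives). The whole of the longest Eif3j2 transcript has near-identical copies, most of all in Eif3j1, so the reads of the pair may not have been assigned to the right gene. In addition, 19.0% of the exonic length of Eif3j1 overlaps another gene, Spg11, and the strand setting of the counting is not given in the sources used here.

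Among the scanning factors eIF1 and eIF1A, which guard start codon selection, 2 of 5 fell (40%, beside 18.4% of all genes tested) and 3 did not pass. Eif1 had 175, 184 and 158 CPM with trametinib, against 184, 203 and 166 CPM with vehicle, and the groups overlapped (log2 fold change −0.10 ± 0.10, edgeR adjusted p = 0.460). Near-identical copies cover 25.9% of its longest transcript. Of the eIF1A paralogs, Eif1ax passed and Eif1a did not. The X-linked Eif1ax had 30.9, 33.0 and 37.2 CPM with trametinib, against 46.8, 48.9 and 49.4 CPM with vehicle, without overlap (log2 fold change −0.52 ± 0.08, edgeR adjusted p = 0.00205). Eif1a had 85.8, 95.5 and 85.3 CPM with trametinib, against 92.2, 94.8 and 90.0 CPM with vehicle, and did not pass (log2 fold change −0.06 ± 0.07, edgeR adjusted p = 0.555). Per kilobase, Eif1ax made up 16.6%, 16.1% and 19.5% of the pair with trametinib and 22.0%, 22.2% and 23.3% with vehicle. Eif1ad, which carries an eIF1A domain, averaged 20.9 ± 0.577 CPM with trametinib and 25.6 ± 1.49 CPM with vehicle. Its fall of 0.29 on the log2 scale (edgeR adjusted p = 0.0201) lost the call without trametinib replicate 1 or 2, without vehicle replicate 1 or 2 and in DESeq2 (adjusted p 0.00633 to 0.0807 over the 10 alternatives), which left 1 gene of this group lower.

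Of the factors of the late steps, 3 of 5 fell (60%, beside 18.4% of all genes tested). Eif5, which triggers GTP hydrolysis by eIF2 at the start codon, had 207, 206 and 229 CPM with trametinib, against 267, 263 and 267 CPM with vehicle. No library of one group reached the other, and the log2 fold change was −0.31 ± 0.08 (edgeR adjusted p = 0.0132), with the call lost without trametinib replicate 1 or vehicle replicate 1 (adjusted p 0.00196 to 0.0639 over the 10 alternatives). Eif5b, the GTPase that joins the ribosomal subunits, had 142, 134 and 138 CPM with trametinib, against 148, 165 and 147 CPM with vehicle. It did not overlap between the groups but did not pass (log2 fold change −0.15 ± 0.07, edgeR adjusted p = 0.151).

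Eif5a, the hypusine-bearing factor that helps ribosomes through difficult peptide bonds, had 229, 227 and 218 CPM with trametinib, against 293, 305 and 258 CPM with vehicle, without overlap. Its log2 fold change of −0.35 ± 0.08 (edgeR adjusted p = 0.0133) lost the call without vehicle replicate 1 or 2 (adjusted p 0.00142 to 0.0574 over the 10 alternatives), while its scarce paralog Eif5a2 had 7.56, 9.08 and 9.02 CPM with trametinib and 6.39, 8.70 and 8.59 CPM with vehicle and did not pass. Eif6, which keeps the large ribosomal subunit from joining early, had 77.2, 73.0 and 68.0 CPM with trametinib, against 108, 106 and 83.9 CPM with vehicle. Vehicle replicate 3 was the nearest to the trametinib libraries, without overlap (log2 fold change −0.45 ± 0.10, edgeR adjusted p = 0.00991). Without vehicle replicate 1, where Eif5 and Eif5a missed the threshold, 1 of the 5 fell.

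Levels were compared between genes per kilobase of the longest protein-coding transcript. With vehicle the order began with Eif4a1, at 219 ± 13.8 CPM per kilobase with trametinib and 295 ± 23.3 with vehicle, followed by Eif4g2, at 167 ± 5.16 with trametinib and 205 ± 4.66 with vehicle. Eif5a came next, at 156 ± 4.33 with trametinib and 199 ± 16.7 with vehicle, then Eif1, at 130.1 ± 10.0 with trametinib and 139 ± 13.9 with vehicle (SD, n = 3 each). In vehicle libraries Eif4g2 and Eif5a did not differ beyond their spread, and the same 4 genes led in the same order with trametinib. Eif3c and Eif3h followed in both groups, with Eif3h the higher in trametinib cells at 92.0 ± 3.18 against 87.2 ± 1.98 for Eif3c, and Eif3c the higher in vehicle cells at 114 ± 3.47 against 91.2 ± 2.47 for Eif3h. At the lower end stood Eif2ak4, Eif2b3, Eif2ak3, Eif3j1, Eif5a2 and Eif3j2, the last at 0.401 ± 0.226 with trametinib and 1.14 ± 0.292 with vehicle. Eif2b3 was 52nd in the trametinib order and 49th in the vehicle order of the 53. With the whole exonic length in place of the transcript length, Eif4g2 led the vehicle order and Eif4a1 came after it.

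**Figure D4:**
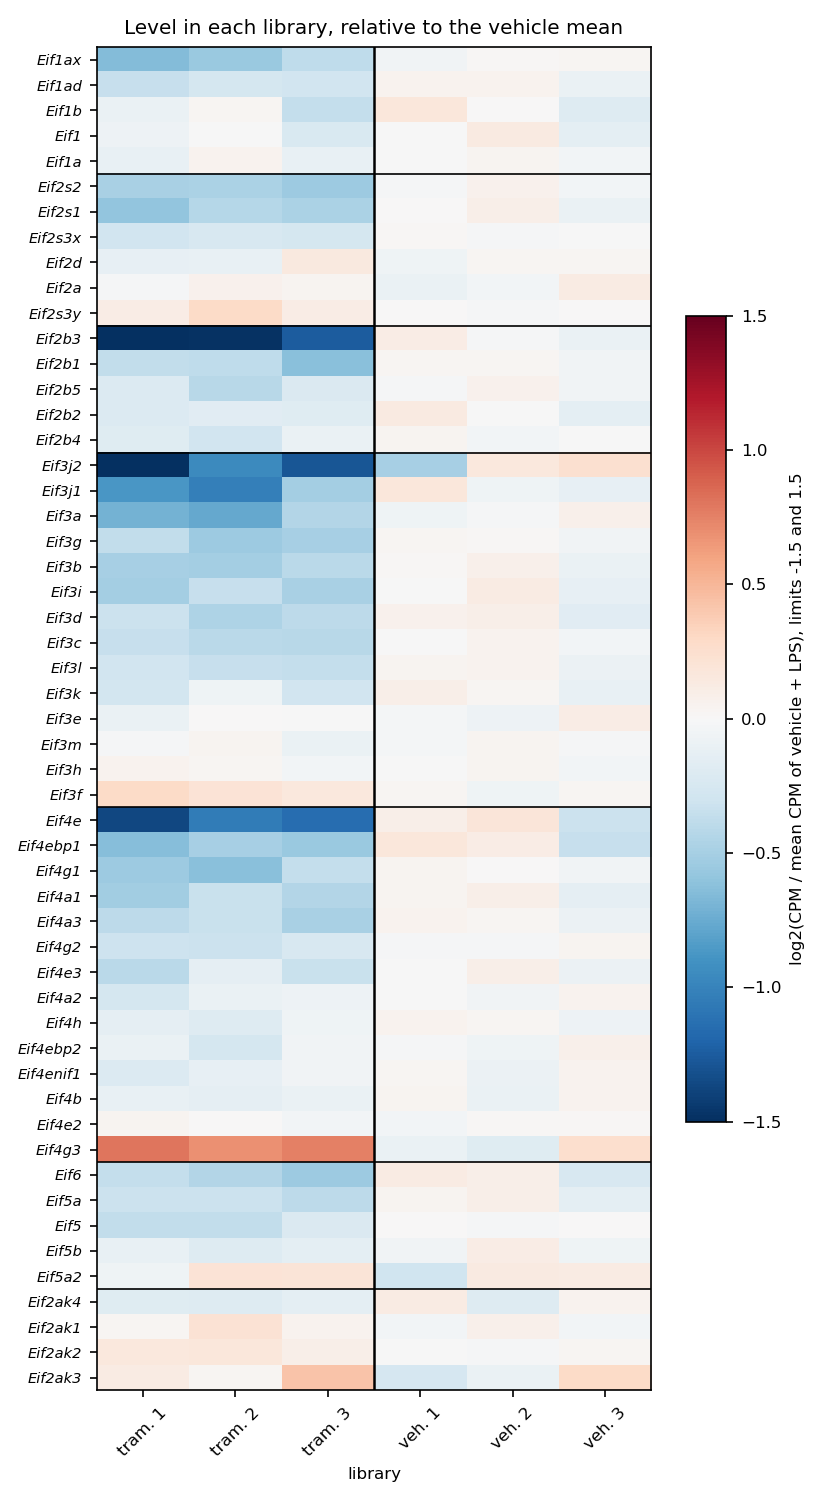
Log2 ratio of the CPM of each of the 53 initiation factor genes to its mean over the vehicle + LPS libraries, rows grouped by complex, with the trametinib + LPS libraries on the left and the vehicle + LPS libraries on the right; colours end at −1.5 and 1.5. Eif3j2, Eif2b3 and Eif4e are the lowest in trametinib replicates 1 and 3, while in trametinib replicate 2 Eif3j1 is lower than Eif3j2. Eif4g3 is higher in all 3 trametinib libraries, and vehicle replicate 3 is the lowest vehicle library for 20 of the 26 genes that fell.

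Genes that work with the initiation factors but carry other names showed both directions. Of 12 partners of eIF4F and poly(A)-binding proteins, 2 fell (16.7%), 3 rose and 7 did not pass, with a median log2 fold change of −0.08. Of all genes tested, 18.4% fell and 15.8% rose, so the share that fell in this list was near that of all genes. Dhx29, a helicase that helps the small subunit through structured leaders, had 14.9, 15.3 and 15.8 CPM with trametinib and 25.7, 25.3 and 23.8 CPM with vehicle (log2 fold change −0.70, edgeR adjusted p = 0.000460). Pdcd4, an inhibitor of eIF4A, was low in both groups but higher with trametinib, at 4.49, 4.19 and 5.34 CPM against 1.29, 2.51 and 2.54 CPM with vehicle (log2 fold change 1.14, edgeR adjusted p = 0.00812). The eIF4E kinases moved apart: Mknk2 had 126, 115 and 137 CPM with trametinib and 82.9, 76.1 and 93.9 CPM with vehicle (log2 fold change 0.58, edgeR adjusted p = 0.00210), and Mknk1, named after its values were seen, had 64.8, 60.9 and 62.1 CPM with trametinib and 72.9, 73.5 and 71.9 CPM with vehicle (log2 fold change −0.22, edgeR adjusted p = 0.0217). The groups did not overlap for any of these 4 genes. In DESeq2, and when trametinib replicate 1 or 2 or vehicle replicate 1 or 2 was left out, 1 of the 12 was lower. At least 1 of the calls of Dhx29 and Mknk1 was therefore lost in each of these.

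Of 9 genes that control eIF2 phosphorylation beside the kinases, 3 fell, 3 rose and 3 did not pass (median log2 fold change 0.22). The share that fell was 33.3%, where 18.4% of all genes tested fell and 15.8% rose. Abcf1, which binds eIF2, fell by 0.36 on the log2 scale (edgeR adjusted p = 0.00356), while Nck1, an adaptor that brings a phosphatase to eIF2, rose by 0.43 (edgeR adjusted p = 0.0118) and Impact, an inhibitor of GCN2, rose by 0.26 (edgeR adjusted p = 0.0160). These counts were unstable: 0 to 1 rose and 1 to 2 fell when trametinib replicate 1 or 2 or vehicle replicate 1 or 2 was left out. Of 14 genes of the ATF4 response, 8 fell (57.1%, beside 18.4% of all genes tested), 1 rose and 5 did not pass, with a median of −0.44. Phosphorylation of eIF2, which lies upstream, was not measured. Named after their values were seen, Atf4 itself fell by 0.46 on the log2 scale (edgeR adjusted p = 0.00527) and Ddit4 rose by 0.94 (edgeR adjusted p = 0.00552). Ddit3, Atf5 and Nupr1, also named later, did not pass, at 0.11, 0.053 and 0.11. Asns, asparagine synthetase, had 43.0, 43.5 and 41.7 CPM with trametinib and 107, 115 and 97.1 CPM with vehicle (log2 fold change −1.32, edgeR adjusted p = 9.79e-05). Aldh18a1, of proline synthesis, fell by 1.08 and Phgdh, of serine synthesis, by 0.74 on the log2 scale (edgeR adjusted p = 0.000163 and 0.000268). In Asns, Aldh18a1 and Phgdh every trametinib library was below every vehicle library. Earlier results of these data already showed lower transcripts of ATF4 response genes, so this is no independent support.

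Of 11 further genes of initiation, recycling and hypusination, 7 fell (63.6%, beside 18.4% of all genes tested) and 4 did not pass. Their median log2 fold change was −0.43. Denr, which serves reinitiation and recycling, had 38.9, 45.2 and 45.3 CPM with trametinib and 96.7, 97.0 and 89.2 CPM with vehicle, groups that lay well apart (log2 fold change −1.13, edgeR adjusted p = 0.000125). Abce1, which splits ribosomes after termination, fell by 0.87 and Bzw2, a mimic of eIF5, by 0.77 on the log2 scale (edgeR adjusted p = 0.000702 and 0.00374). Without trametinib replicate 1, vehicle replicate 1 or vehicle replicate 2, 4 of the 11 passed. Of 7 elongation factors, 2 fell (28.6%, beside 18.4% of all genes tested) and 5 did not pass (median −0.22). Eef1e1, which despite its name is a scaffold of the multi-tRNA synthetase complex, fell by 1.32 on the log2 scale (edgeR adjusted p = 0.000459). Eef1g, a subunit of the exchange factor for eEF1A, fell by 0.34 (edgeR adjusted p = 0.00815), and Eef2k, the kinase of eEF2, did not pass (log2 fold change −0.45, edgeR adjusted p = 0.0532). With the replicate block 5 of the 7 elongation genes passed, all lower.

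Transcripts of mTORC1 and the S6 kinases, which feed into eIF4F, gave 1 call, lower (9.09%, beside 18.4% of all genes tested). Of 11, Tsc1, a brake on mTORC1, fell by 0.33 on the log2 scale (edgeR adjusted p = 0.0167) and 10 did not pass, with a median of −0.15. Rps6kb1, the S6 kinase, and Rptor, the substrate-binding subunit of mTORC1, had log2 fold changes of −0.17 and −0.19 (edgeR adjusted p = 0.0965 and 0.0978). The count was 0 without trametinib replicate 1 or 2 or vehicle replicate 1, and 4 without trametinib replicate 3. In simulated libraries of the same depth the test recovered 28 of 50 genes changed 1.5-fold and 42 of 50 changed 2-fold. The changed genes were drawn at random from all tested genes, and no change under 1.5-fold was simulated. Same-numbered libraries were not linked in it. The recovery therefore does not give the power for these 11 genes.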

How the data were processed

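RNA was sequenced from 6 cultures of mouse peritoneal macrophages, 3 with trametinib and LPS and 3 with vehicle and LPS. The authors deposited raw counts per gene, with no normalization, and the submitters' processing notes name HISAT2 2.1.0, featureCounts 1.6.4, DESeq2 1.24.0, R 3.6.0 and the mm10 build. Which annotation and strand setting were used, and how multimapping reads were handled, is not given in the sources used here. The 310 entries that repeated an identifier were dropped, keeping 1 entry for each, and symbols, positions and lengths came from GENCODE mouse release M21, which held 25033 of 25044 identifiers.

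Genes were filtered with filterByExpr, scaled with TMM factors and compared in edgeR 4.0.16 by the robust quasi-likelihood test, with group as the sole term and 4 residual degrees of freedom. P values were adjusted by Benjamini-Hochberg over 11286 genes, with a threshold of 0.05. Log2 fold changes are trametinib over vehicle. The standard error is the absolute log2 fold change over the root of F. Sample information gives 3 mice in all and no link from mouse to library, so the p values reflect only how far these samples vary, which may be technical.

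Both groups share replicate numbers. Across genes, how libraries deviated from their group mean correlated at 0.339, 0.393 and 0.285 between same-numbered libraries, against −0.0724 to −0.223 otherwise. The pairing is therefore read from the data, not from the labels, and a fit with the number as a block was an alternative. The other 9 were DESeq2's size factors in edgeR, no filter, DESeq2 1.42.0 and leaving out each library. No replicate was a copy of another (chi-square per gene between replicates 5.98 to 28.1).

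The members, the further lists and the named-gene rule were chosen with earlier results of these data known. That rule gives library values for members past the threshold among the 8 highest or 8 lowest log2 fold changes and for 25 set genes, and names up to 3 genes of each further list by smallest p. On simulated data with 200 changed genes, the test called 24 of 10987 unchanged genes. Near-identical copies are stretches of at least 100 bases at 98% identity or more (BLAST 2.17.0). One further marker list is not reported here.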

Additional observations from a re-analysis of the deposited data

How the results depend on the processing

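Over the alternatives, 19 of the 26 initiation factor genes that fell and 1 of the 2 that rose, Eif4g3, stayed past the threshold in all 10, and 7 lower genes lost the call in at least 1. Leaving out 1 library gave 2428 to 4663 changed genes in all, 21 to 29 lower and 1 to 2 higher initiation factor genes, and a median log2 fold change of −0.27 to −0.23. With no filter on low counts, 1 initiation factor gene was higher. The replicate block gave 4836 changed genes and 27 lower initiation factor genes, and apart from Eif4e3 it changed no other call among the 53. The sign turned in 7 genes that had not passed, with these ranges when 1 library was left out: Eif2a −0.020 to 0.092, turned without vehicle replicate 1; Eif2d −0.11 to 0.029, without trametinib replicate 1 or 2; Eif3e −0.072 to 0.025, without trametinib replicate 1 or vehicle replicate 3. Eif3h ran from −0.0068 to 0.040 (turned without trametinib replicate 1 or vehicle replicate 3), Eif3m from −0.054 to 0.014 (without trametinib replicate 3), Eif4e2 from −0.013 to 0.027 (without trametinib replicate 1 or vehicle replicate 1) and Eif5a2 from −0.013 to 0.20 (without vehicle replicate 1). The cause was not tested. Depth limits Eif3j2, with 6 to 59 counts a library, most.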
